A study of Mus musculus with 13 samples.

Results

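The serpins are a family of proteins that share 1 fold, and most of them block proteases by acting as a bait: the protease cuts an exposed loop, the serpin snaps into a new shape and both proteins stay locked together. Clade A serpins are mostly secreted into plasma and tissue fluid, clade B serpins mostly act inside cells, and a few members have lost inhibition altogether and serve as chaperones or hormone carriers. In skin, clade B serpins are abundant in keratinocytes, where the proteases that shed the cornified layer have to be held in check, and the collagen chaperone *Serpinh1* is abundant in dermal fibroblasts.

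All genes whose mouse symbol starts with Serpin were taken from the 6 count files of postnatal day 4 (P4) whole skin, which gave 68 of the 49315 genes in each file. They were chosen by symbol, and 37 of them were selected on these same libraries by a rule of at least 10 raw counts in 3 or more libraries, so that being detected is not a finding. KCTD1 and KCTD15 are paralogous proteins known to bind and inhibit AP-2 transcription factors, and the comparison asks what their combined loss in keratinocytes changes in the skin. The 3 WT libraries came from littermates of the 3 libraries labelled *K14Cre+Kctd1fl/flKctd15fl/fl*, called DKO here, at P4. Cre was driven by the keratin 14 promoter, so recombination was directed to keratinocytes, whereas the RNA came from the whole thickness of back skin with dermis, vessels, immune cells and some muscle, and no Cre-positive control without floxed alleles was among the 6 libraries. The 7 libraries of 3-week epidermis held only counts of 0 and gave no value for any serpin.

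Total counts were between 11263863 and 17643043 per library, and normalized counts below are counts scaled by edgeR's TMM method to the mean library size. At the level of whole genes, *Kctd15* counts were higher in DKO (736, 737 and 763 normalized counts in WT, and 1131, 1509 and 1325 in DKO), as were those of *Kctd1* (443, 410 and 442 against 506, 985 and 735). The loxP sites flank a single exon of each gene, so whole-gene counts do not show whether that exon was lost. WT replicate 3 and DKO replicate 1 share 1 number in their titles and the other 4 libraries share another, and the labels do not say what the number stands for. DKO replicate 2 stood apart in hepatocyte genes: *Alb*, the plasma albumin gene, had 93.8 normalized counts there and 10.2 to 22.3 in the other 5 libraries, and 4 of the 10 listed hepatocyte genes (*Ttr*, *Fga*, *Fgb* and *Fgg*) had at most 0.856 in any other library.

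The promoters of the members on which the results turn are shown first, since AP-2 factors are the known partners of KCTD1 and KCTD15. *Serpinb6e* is the member with the largest difference, *Serpinb6d* is the *Serpinb6* copy with the most similar promoter, *Serpina1e* and *Serpina3b* are the other lower members that DESeq2 called, and *Serpinb3a* and *Serpinb3c* are those with the lowest p among the higher ones. Each sequence runs 5′ to 3′ on the strand of the gene, from 250 bases before to 50 bases after the start of a RefSeq transcript in GRCm38.p6, and capitals mark a match to the AP-2 motif GCCNNNGGC or to the TATA motif TATAAA on either strand.
Serpinb6e: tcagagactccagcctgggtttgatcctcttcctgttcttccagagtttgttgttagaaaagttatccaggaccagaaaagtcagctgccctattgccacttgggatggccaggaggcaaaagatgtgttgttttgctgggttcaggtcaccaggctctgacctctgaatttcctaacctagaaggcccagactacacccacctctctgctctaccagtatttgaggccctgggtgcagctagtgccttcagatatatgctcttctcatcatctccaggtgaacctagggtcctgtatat
Serpinb6d: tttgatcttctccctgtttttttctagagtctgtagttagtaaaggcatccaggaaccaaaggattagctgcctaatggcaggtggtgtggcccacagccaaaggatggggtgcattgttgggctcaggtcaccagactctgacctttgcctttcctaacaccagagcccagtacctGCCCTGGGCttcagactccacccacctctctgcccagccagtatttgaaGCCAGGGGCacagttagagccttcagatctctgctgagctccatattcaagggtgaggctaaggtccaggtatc
Serpina1e: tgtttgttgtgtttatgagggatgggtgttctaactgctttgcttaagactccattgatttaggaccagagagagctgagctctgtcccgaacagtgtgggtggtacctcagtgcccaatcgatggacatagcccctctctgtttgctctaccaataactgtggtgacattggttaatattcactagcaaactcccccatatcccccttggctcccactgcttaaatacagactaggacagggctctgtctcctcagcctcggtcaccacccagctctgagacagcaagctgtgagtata
Serpina3b: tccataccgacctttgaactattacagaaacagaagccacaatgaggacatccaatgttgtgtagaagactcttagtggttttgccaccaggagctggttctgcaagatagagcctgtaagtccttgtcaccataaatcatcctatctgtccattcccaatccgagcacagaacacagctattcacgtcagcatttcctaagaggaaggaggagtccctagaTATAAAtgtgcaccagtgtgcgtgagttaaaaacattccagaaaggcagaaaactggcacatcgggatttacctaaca
Serpinb3a: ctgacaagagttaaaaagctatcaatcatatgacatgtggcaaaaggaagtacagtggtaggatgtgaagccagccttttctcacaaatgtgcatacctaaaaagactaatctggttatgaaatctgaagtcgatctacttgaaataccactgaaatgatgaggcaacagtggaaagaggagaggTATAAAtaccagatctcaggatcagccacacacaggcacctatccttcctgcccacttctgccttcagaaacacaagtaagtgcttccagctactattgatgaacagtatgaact
Serpinb3c: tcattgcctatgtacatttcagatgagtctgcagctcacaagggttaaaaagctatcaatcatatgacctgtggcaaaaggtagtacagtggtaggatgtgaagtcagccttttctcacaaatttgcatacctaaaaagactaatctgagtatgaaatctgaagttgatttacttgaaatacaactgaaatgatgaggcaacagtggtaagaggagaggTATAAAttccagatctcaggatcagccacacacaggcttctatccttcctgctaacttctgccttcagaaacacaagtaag
These windows lie at chr13:33843359-33843658 (*Serpinb6e*, minus strand), chr13:33661155-33661454 (*Serpinb6d*, plus strand), chr12:103956848-103957147 (*Serpina1e*, minus strand), chr12:104127746-104128045 (*Serpina3b*, plus strand), chr1:107052254-107052553 (*Serpinb3a*, minus strand) and chr1:107278322-107278621 (*Serpinb3c*, minus strand). The *Serpina1e* transcript start lies inside the gene bounds of the count files, while the other 5 starts coincide with those bounds.

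*Serpinb6e* and *Serpina1e* held neither motif in these windows. *Serpinb6d* held 2 AP-2 matches, which start at −73 and −24 from the transcript start, although its promoter was 66.9% identical to that of *Serpinb6e* over the aligned columns. *Serpina3b* held TATAAA at −28, *Serpinb3c* at −31 and *Serpinb3a* at −65. Promoters were listed for 53 of the 68 genes and for 30 of the 37 members that met the count rule. Among the 34 promoters of these 30 genes, 1 held the AP-2 motif, that of *Serpinb6c*, against 16.6% of all 32851 promoters searched, and 11 (32.4%) held TATAAA against 13.6% of all. These 11 promoters are not independent. *Serpinb12* and *Serpinb2* each entered with more than 1 window, and the *Serpinb2* windows overlap and hold the same TATAAA. The promoters of *Serpinb3a*, *Serpinb3b* and *Serpinb3c*, also among the 11, are 74.6% to 90% identical. These matches are letters in a window and were not measured as binding sites.

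The family is arranged in 3 clusters and scattered single genes. A cluster on chromosome 12 held 28 genes of clade A within 799.5 kb (GRCm38, 103614786 to 104414329), of which 12 met the count rule. A cluster on chromosome 1 held 12 genes of clade B within 749.3 kb (106861173 to 107610484), of which 11 met it, and a cluster on chromosome 13 held 16 genes of clade B within 1161 kb (32842092 to 34002794), of which 5 met it. The remaining 12 genes lay outside clusters, and 9 of them met the rule. Across clades, 12 of 29 genes of clade A, 16 of 28 of clade B and 9 of the other 11 genes were detected by the rule.

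**Figure D1:**
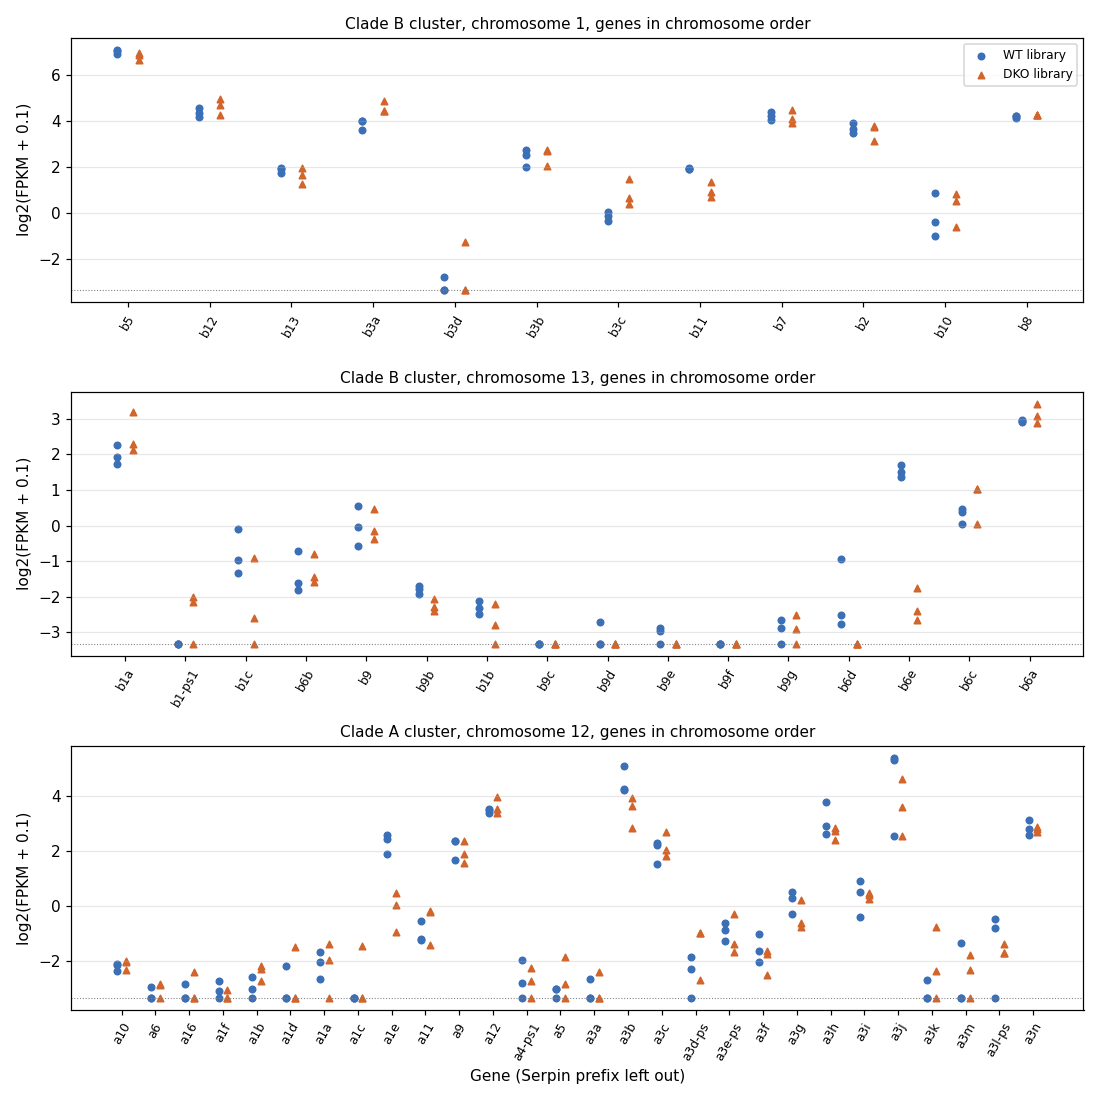
Level of each serpin gene in the 3 clusters, with genes in chromosome order on the x axis and log2(FPKM + 0.1) on the y axis, 1 circle per WT library and 1 triangle per DKO library. The dotted line marks 0 FPKM, where Serpinb9c and Serpinb9f lie in every library, while 11 of the 12 genes of the chromosome 1 cluster lie above it in all 6 libraries.

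Among the 31 genes below the rule, 4 (*Serpina7*, *Serpinb9c*, *Serpinb9f* and *Serpini2*) had 0 counts in all 6 libraries. The 3 members just inside the rule by their count in the library ranked 3 of 6 were *Serpina3e-ps* (10), *Serpina11* (15) and *Serpini1* (18), and just outside lay *Serpinb6b* (9), *Serpinb1c* (8) and *Serpinb9b* (8). A count of 0 in the deepest library allows up to 3 counts, or 0.17 CPM, and 0.266 CPM in the shallowest, so low copies could go undetected at this depth. *Serpinb6d*, below the rule, had raw counts of 1, 2 and 11 in WT and 0 in each DKO library. *Serpina3k*, a hepatocyte-type copy of the antichymotrypsin group, had 14 raw counts in DKO replicate 2 and at most 3 in any other library, and *Serpina1c* had 5 in DKO replicate 2 and 0 in the others.

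A small number of members made up most of the serpin signal of P4 skin. On the scale of FPKM (fragments per kilobase, scaled to sequencing depth), computed here from counts, gene length and TMM scaling, the 10 highest members held 80.3% to 83.8% of the summed serpin FPKM in every library. *Serpinb5*, also called maspin, is a clade B serpin of epithelial cells that has lost protease inhibition, and its FPKM was 133, 121 and 137 in WT and 116, 101 and 126 in DKO. *Serpinh1*, or HSP47, binds procollagen in the endoplasmic reticulum, and its FPKM was 82.4, 95.1 and 130 in WT and 128, 140 and 88.9 in DKO. These 2 genes overlapped in FPKM within each group, so their order did not hold beyond the spread between libraries.

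The rest of the 10 highest members lay between 14.8 and 28.5 FPKM in WT. They were *Serpina3j* (mean 28.5 ± 19.7, SD, n = 3), *Serpinf1*, the secreted factor PEDF (26 ± 2.9), *Serping1*, the C1 inhibitor of complement (23.8 ± 2.55), *Serpina3b* (23.4 ± 8.54), *Serpinb12* (20.6 ± 2.93), *Serpinb7* (18.9 ± 2.28), *Serpinb8* (18.3 ± 0.575) and *Serpinb3a* (14.8 ± 2.16). Neighbours in this order overlapped in their WT libraries, except *Serpinb8* and *Serpinb3a*. *Serpinb2* (PAI-2) and *Serpina12* (vaspin, an inhibitor of kallikrein 7) followed at 12.8 ± 1.84 and 10.9 ± 0.538 FPKM. Ranked by CPM without division by length, 8 of the 10 genes remained among the highest 10.

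**Figure D2:**
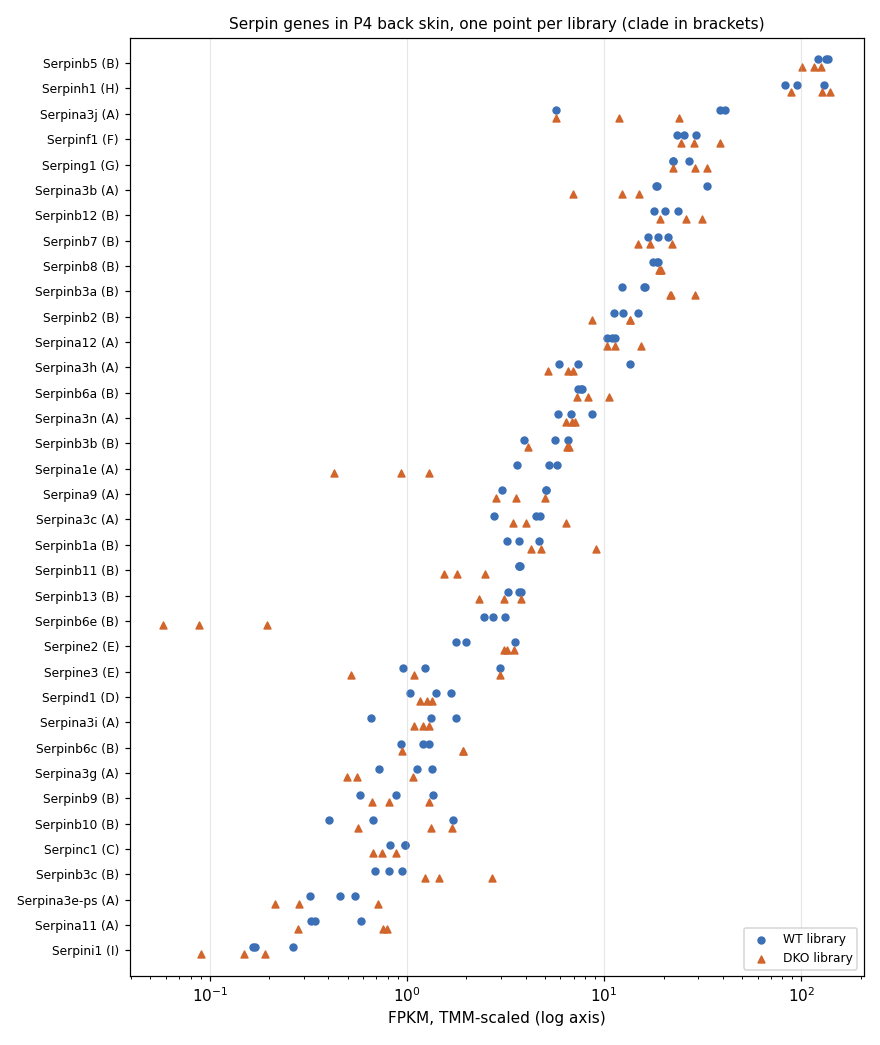
FPKM of 36 of the 37 serpin genes that met the count rule, on a log axis, with genes on the y axis ordered by their WT mean and 1 point per library (circles WT, triangles DKO). Serpinb5 and Serpinh1 lie near 100 in all 6 libraries, and Serpinb6e falls from between 2.47 and 3.13 in WT to between 0.058 and 0.195 in DKO.

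Between DKO and WT, the family as a whole did not shift to one side. Of the 36 members that entered the edgeR fit, 17 were higher and 19 lower in DKO, with a median log2 fold change of −0.05, beside 0.02 and 52.9% higher over all 20168 genes tested. *Serpina3e-ps*, a pseudogene at 3.98 to 13.2 normalized counts, was too low for the fit. The median was −0.20 for clade A (3 of 11 higher), 0.08 for clade B (9 of 16 higher) and 0.12 for the other clades (5 of 9 higher). For 20 of the 36 members the absolute log2 fold change was under 0.3.

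A gene was called where edgeR's quasi-likelihood test gave a Benjamini-Hochberg adjusted p under 0.05 with an absolute log2 fold change over 1. By that rule 1 member was called, *Serpinb6e*, beside 0.0694% of all genes tested, and it is also the 1 member that met the count rule through 1 group only, so this count is no evidence about the family. DESeq2 with the same thresholds called 3 members, *Serpinb6e*, *Serpina1e* and *Serpina3b*, beside 0.827% of all genes. At an unadjusted edgeR p under 0.05, 2 members were higher in DKO (*Serpinb3a* and *Serpinb3c*), beside 4.96% of all genes, and 4 were lower (*Serpinb6e*, *Serpina1e*, *Serpina3b* and *Serpinb11*), beside 2.54%. The 3 WT and the 3 DKO libraries did not overlap in 7 of 36 members (19.4%), these 6 and *Serpinb8*, beside 13.2% of all genes. *Serpinb6e*, which met the count rule through WT only, is also in the DESeq2 count, the lower count and the count without overlap. Those counts are therefore no evidence about the family either. With 3 libraries against 3, an exact permutation test of any single gene cannot give a p below 0.1.

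**Figure D3:**
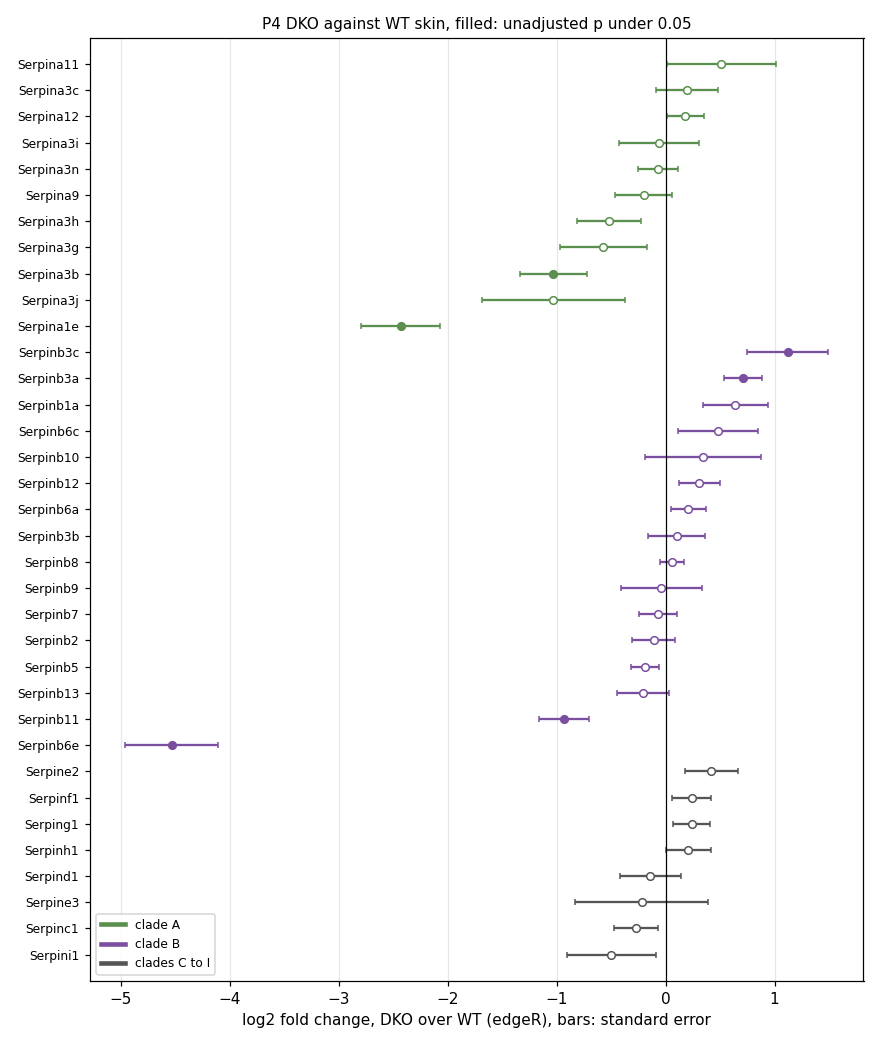
Log2 fold change of DKO over WT on the x axis (edgeR, bars are standard errors) for 35 of the 36 tested serpin genes, grouped by clade on the y axis, with filled points for an unadjusted p under 0.05. Serpinb6e at −4.53 and Serpina1e at −2.43 lie furthest from 0, and most members lie near it.

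*Serpinb6e*, a little-studied copy of the *Serpinb6* group whose human counterpart SERPINB6 inhibits cathepsin G, was nearly lost in DKO skin. The gene (ENSMUSG00000069248) lies on the minus strand of chromosome 13 from 33832345 to 33843408 (GRCm38). Its normalized counts were 56.1, 62 and 71 in WT and 1.31, 4.41 and 1.99 in DKO. All 3 DKO libraries lay far below every WT library. The log2 fold change was −4.53 ± 0.428 (SE), with an adjusted p of 0.0085 in edgeR and of 7.16e-09 in DESeq2. Summed raw counts were 211 in WT and 7 in DKO, so that, after scaling for depth, WT was 24.2-fold higher with a 95% counting interval of 11.5 to 60.9, which covers counting error only. *Serpinb6e* met the count rule only through its WT libraries.

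No tested gene around it differed at the same level. Within 500 kb on each side, 28 other genes were annotated and 13 were tested, and none had an unadjusted edgeR p under 0.05, with log2 fold changes from −0.43 to 0.48 and a lowest p of 0.213 at *Serpinb6c*. *Serpinb6d* also lies in this window but was too low to be tested, with 1, 2 and 11 raw counts in WT and 0 in each DKO library. *Serpinb6c*, the neighbouring copy, had 25.5, 27.2 and 19.7 normalized counts in WT and 40.8, 19.9 and 40.8 in DKO. *Serpinb6a*, the most abundant *Serpinb6* copy, had 632, 604 and 626 in WT and 873, 598 and 681 in DKO (log2 fold change 0.21 ± 0.16, adjusted p = 0.898 by edgeR). Both overlapped between groups. Of the exon length of *Serpinb6a*, 29.3% is shared with *1110046J04Rik*, *Nqo2* and *Ripk1* on the opposite strand, and whether counting used strand is not given. *Serpinb6b*, whose transcript is 86.5% identical to that of *Serpinb6c*, had 6, 9 and 20 raw counts in WT and 12, 7 and 9 in DKO. No 150-base window of *Serpinb6e* transcripts occurred in another gene, and among *Serpinb6b*, *Serpinb6c* and *Serpinb6d* its transcript was most similar to that of *Serpinb6c*, at 81.6% identity. The edgeR call was lost without WT replicate 2 (log2 fold change −4.55, edgeR adjusted p = 0.0567), WT replicate 3 (−4.44, 0.0642) or DKO replicate 3 (−4.35, 0.0724), and without WT replicate 1 the adjusted p rounded to 0.05.

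The other members of the chromosome 13 cluster showed no call. *Serpinb1a*, an inhibitor of neutrophil elastase and cathepsin G, had 94.8, 138 and 109 normalized counts in WT and 268, 126 and 140 in DKO (log2 fold change 0.64 ± 0.299, unadjusted p = 0.0594 and adjusted p = 0.694 by edgeR). DKO replicate 1 alone lay far above the WT range. *Serpinb9*, which inhibits granzyme B, had 30.6, 46.7 and 71.9 in WT and 68.4, 35.3 and 42.8 in DKO, a log2 fold change of −0.04, with its highest values in the 2 libraries that share a title number.

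**Figure D4:**
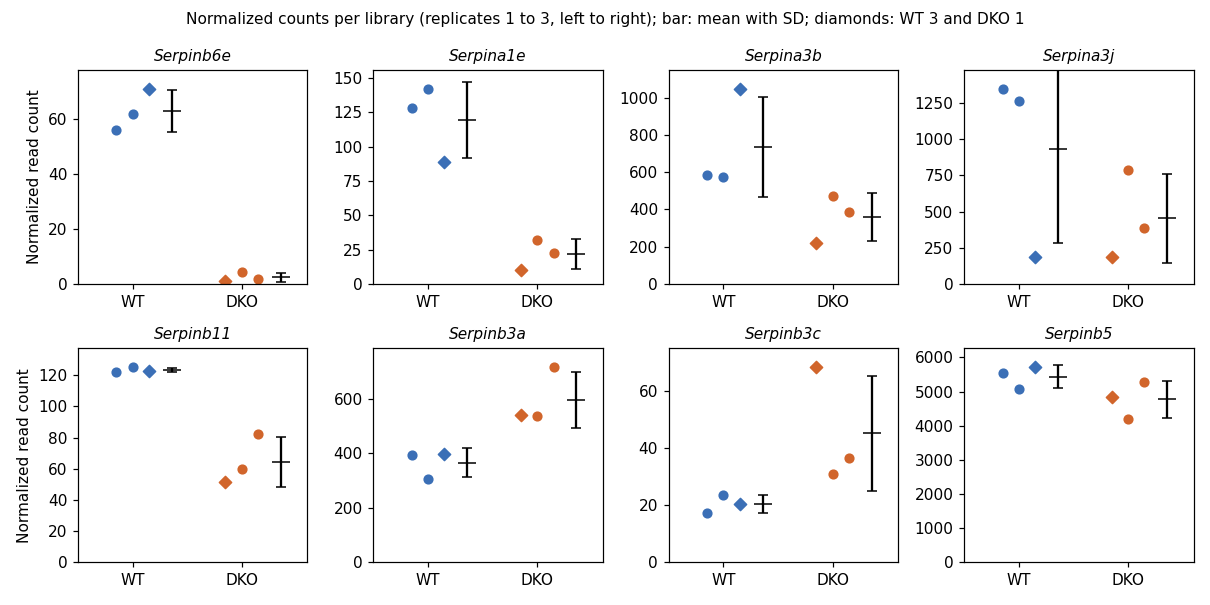
Normalized read count (y axis, from 0) in each WT and DKO library for 8 serpin genes, with the mean and SD of each group as a black bar and diamonds for WT replicate 3 and DKO replicate 1, which share a title number. Serpinb6e and Serpina1e separate the groups by the widest margins, whereas both diamonds are low for Serpina3j.

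In clade A, the copy of alpha-1 antitrypsin that mouse skin expressed was lower in DKO. Alpha-1 antitrypsin is an inhibitor of neutrophil elastase that the liver secretes into plasma, and the mouse carries several near-identical copies. *Serpina1e* (ENSMUSG00000072849, chromosome 12, 103946931 to 103958975, minus strand) had 128, 142 and 89 normalized counts in WT and 10.5, 32 and 22.9 in DKO. Every DKO library lay below every WT library. The log2 fold change was −2.43 ± 0.363, with an adjusted p of 0.068 in edgeR, which misses the threshold, and of 2.03e-07 in DESeq2. Over 12 alternative settings the log2 fold change was between −2.78 and −2.14 and the call was made under 7, with adjusted p from 2.03e-07 to 0.31. Among the 4 libraries of the larger title number the difference of group means on the log2 scale was −2.30, and between WT replicate 3 and DKO replicate 1 it was −3.08.

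*Serpina1e* stood alone among its copies in skin. The 5 others (*Serpina1a*, *Serpina1b*, *Serpina1c*, *Serpina1d* and *Serpina1f*) had at most 8 raw counts in any library. Of these, *Serpina1f* is a more distant relative, with a transcript 61.3% identical to that of *Serpina1e* over 468 aligned columns. *Serpina1e* transcripts are 95.7% to 96.3% identical to those of *Serpina1a* to *Serpina1d*, and 7.36% of its 150-base windows also occur in another gene, so its reads are only partly separable from theirs and the assignment among copies is uncertain. The highest DKO value, 32, was in DKO replicate 2, the library with the highest *Alb* count, while in WT *Alb* had 18.3, 10.2 and 20.5 normalized counts beside the 89 to 142 of *Serpina1e*. The part of hepatocyte RNA in the DKO values was not tested.

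The *Serpina3* copies of chromosome 12 are relatives of human antichymotrypsin, and *Serpina3b* and *Serpina3j* were the most abundant of them. *Serpina3b* had 584, 575 and 1045 normalized counts in WT and 220, 472 and 386 in DKO, so the groups did not overlap. Its log2 fold change was −1.03 ± 0.306, and the adjusted p was 0.37 in edgeR and 0.0407 in DESeq2. On the log2 scale its difference of group means was −0.43 among the 4 libraries of the larger title number and −2.25 between WT replicate 3 and DKO replicate 1. *Serpina3j* had 1344, 1261 and 187 in WT and 185, 785 and 389 in DKO. WT replicate 3 lay with the DKO libraries, and it and DKO replicate 1, the library that shares its title number, were equally low. The pooled log2 fold change of *Serpina3j* was −1.03 ± 0.654 with an unadjusted p of 0.146 and an adjusted p of 0.842 by edgeR, the value within the larger title number was −1.15 and that within the smaller was −0.01.

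The remaining *Serpina3* copies overlapped between groups. *Serpina3h*, annotated in GENCODE as a transcribed pseudogene, had 161, 129 and 293 normalized counts in WT and 142, 113 and 151 in DKO (log2 fold change −0.52 ± 0.297). *Serpina3g* had 42.8, 35.7 and 23.1 in WT against 15.8, 34.2 and 17.9 in DKO (−0.57 ± 0.398). *Serpina3n*, the copy best known from acute-phase responses, had 183, 272 and 213 in WT and 200, 216 and 222 in DKO, a log2 fold change of −0.07 ± 0.183 with an adjusted p of 0.974 by edgeR. *Serpina3c* and *Serpina3i* differed by 0.20 and −0.06. Elsewhere in the cluster, *Serpina12* had 614, 638 and 578 in WT and 638, 864 and 578 in DKO (0.18 ± 0.169), and *Serpina9* differed by −0.20 and *Serpina11* by 0.51, the latter at 6.97 to 19.7 normalized counts and with 40.8% of its exon length shared with the overlapping gene *Gm28577*.

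In the clade B cluster on chromosome 1, no member was called by edgeR or DESeq2, and 2 members had higher and 1 had lower counts in DKO at an unadjusted edgeR p under 0.05. *Serpinb3a*, a counterpart of the human squamous cell carcinoma antigens that inhibit cysteine proteases such as cathepsin L, had 396, 305 and 398 normalized counts in WT and 540, 537 and 716 in DKO. All 3 DKO libraries were above all WT libraries, with a log2 fold change of 0.71 ± 0.175, an unadjusted p of 0.00254 and an adjusted p of 0.281 by edgeR and of 0.0597 by DESeq2. *Serpinb3c* had 17.3, 23.8 and 20.5 in WT and 68.4, 30.9 and 36.8 in DKO, again without overlap (1.12 ± 0.373, unadjusted p = 0.0138, adjusted p = 0.458 by edgeR), and DKO replicate 1 was the highest. *Serpinb3b*, which shares 35 bp of exon with *Serpinb3c* and whose promoter is 90% identical to that of *Serpinb3c*, had 168, 100 and 144 in WT and 171, 105 and 165 in DKO (0.10 ± 0.259). The 3 transcripts are 91.8% to 93.7% identical, but no 150-base window was shared among them.

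*Serpinb11* lies beside these genes on chromosome 1 (107361198 to 107380475, plus strand) and was lower in DKO. Its normalized counts were 122, 125 and 123 in WT and 51.3, 59.6 and 82.6 in DKO, without overlap, with a log2 fold change of −0.93 ± 0.23, an unadjusted p of 0.00259 and an adjusted p of 0.281 by edgeR and of 0.0656 by DESeq2. The WT libraries were nearly equal and the DKO libraries were spread below them. *Serpinb13*, an inhibitor of cathepsins L and K, had 95.8, 94.2 and 83 in WT and 59.2, 78.3 and 96.6 in DKO (−0.21 ± 0.237), which overlapped.

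*Serpinb5*, *Serpinb12*, *Serpinb7*, *Serpinb2* and *Serpinb8*, also abundant members of this cluster, had absolute log2 fold changes of at most 0.31. *Serpinb5* had 5552, 5067 and 5707 normalized counts in WT and 4844, 4207 and 5277 in DKO, a log2 fold change of −0.19 ± 0.131 with an adjusted p of 0.88 by edgeR, and 1 DKO library lay within the WT range. *Serpinb12*, an inhibitor of trypsin-like proteases, had 771, 676 and 897 in WT and 1192, 732 and 988 in DKO (0.31 ± 0.191, adjusted p = 0.822 by edgeR). *Serpinb7*, which human genetics ties to a palmoplantar keratosis, had 558, 494 and 630 against 656, 439 and 506 (−0.07 ± 0.178). *Serpinb2* had 401, 441 and 529 in WT and 482, 309 and 484 in DKO (−0.11 ± 0.2), and the much lower *Serpinb10* differed by 0.34 ± 0.531. These 2 genes share 291 bp of exon, and *Serpinb10* is annotated in GENCODE as a polymorphic pseudogene. *Serpinb8*, an inhibitor of furin, had 1353, 1287 and 1365 in WT and 1387, 1377 and 1412 in DKO. Its groups did not overlap, but the log2 fold change was 0.06 ± 0.113 with an unadjusted p of 0.605 and an adjusted p of 0.96 by edgeR, so absence of overlap went with a very small difference.

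Members of clades C to I, which include plasma and matrix serpins, gave no unadjusted edgeR p under 0.05 in 9 tested. *Serpinh1* had 3056, 3527 and 4823 normalized counts in WT and 4743, 5188 and 3296 in DKO (log2 fold change 0.21 ± 0.209, adjusted p = 0.929 by edgeR). *Serpinf1* had 912, 1041 and 836 against 1028, 1381 and 875 (0.24 ± 0.18), and *Serping1* had 791, 788 and 945 against 1179, 1017 and 788 (0.24 ± 0.169), each with overlap. *Serpine2*, or protease nexin 1, a product of the dermal papilla, had 250, 223 and 445 in WT and 436, 389 and 405 in DKO (0.42 ± 0.244, unadjusted p = 0.116, adjusted p = 0.81 by edgeR). Its low values were those of WT replicates 1 and 2, and the log2 difference was 0.75 in the larger title number and −0.03 in the smaller.

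Antithrombin, heparin cofactor II, neuroserpin and *Serpine3* had at most 127 normalized counts in any library and overlapped between groups. Antithrombin (*Serpinc1*) had 126, 107 and 127 normalized counts in WT and 97.3, 87.1 and 113 in DKO (−0.27 ± 0.2), but 34.4% of its exon length is shared with *Zbtb37* on the opposite strand, and whether counting used strand is not given. Heparin cofactor II (*Serpind1*) differed by −0.14 ± 0.277, neuroserpin (*Serpini1*) by −0.50 ± 0.408 and *Serpine3* by −0.22 ± 0.613. *Serpine3* had 63.3 and 63.1 normalized counts in WT replicate 3 and DKO replicate 1 and 11 to 26.3 in the other 4 libraries, so its high values were those of the libraries that share a title number. *Serpinb10* was highest in the same 2 libraries, at 90.7 and 89.4, and the other 4 lay between 21.4 and 70.7.

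Proteases, receptors, cofactors and matrix genes linked to serpins, not all of them direct targets, were read from a list of 62 genes, 43 of them tested. None was called by edgeR or DESeq2, 11 were higher and 1 was lower in DKO at an unadjusted edgeR p under 0.05, beside 4.96% and 2.54% of all genes tested, and the median log2 fold change was 0.16 with 29 of 43 higher, beside 0.02 and 52.9% over all genes. *Klk5*, the kallikrein that starts the protease cascade of desquamation, was the lower one, with 747, 779 and 819 normalized counts in WT and 392, 635 and 434 in DKO (−0.68 ± 0.186, unadjusted p = 0.00468, adjusted p = 0.339 by edgeR). *Klk7*, its partner, overlapped between groups (−0.09 ± 0.188). *Plaur*, the urokinase receptor, had 61.2, 62 and 68.4 in WT and 125, 101 and 82.6 in DKO (0.68 ± 0.23, unadjusted p = 0.0145, adjusted p = 0.466 by edgeR), while its ligand *Plau* differed by 0.31 ± 0.174.

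The remaining genes of this list among the 8 with the lowest p were all higher in DKO without passing the adjusted threshold. *C1s1*, a target of *Serping1*, had 260, 238 and 292 normalized counts in WT and 473, 327 and 364 in DKO (0.56 ± 0.178, adjusted p = 0.426 by edgeR), and *Masp1* differed by 0.48 ± 0.166 (0.485). The mast cell chymase *Mcpt4* differed by 0.52 ± 0.164 (0.422), thrombomodulin (*Thbd*) by 0.52 ± 0.157 (0.384), and the matrix protease *Mmp2* by 0.38 ± 0.122 (0.429). *Tmprss11a*, an epithelial serine protease, had 1.02, 8.49 and 3.42 normalized counts in WT and 14.5, 12.1 and 23.9 in DKO (1.90 ± 0.614, 0.434). The values in brackets after each standard error are adjusted p from edgeR, and none passed the threshold. Among procollagens and partners of *Serpinh1*, 17 of 19 tested genes of a list of 21 were higher with a median of 0.29, beside 52.9% and 0.02 over all genes. Listed fibroblast genes were higher in 12 of 14 with a median of 0.26, so this count is not particular to *Serpinh1* partners. *Col6a1* (0.45 ± 0.19) and *Col6a2* (0.46 ± 0.191) had an unadjusted edgeR p under 0.05, at 0.039 and 0.0383.

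Markers of the cell types in whole skin moved between the groups too, and fewer cells of a type cannot be told apart from less RNA per cell in such tissue. Keratinocyte defining genes were abundant in every library, with *Krt14* between 8837 and 17848 normalized counts and *Krt5* between 16140 and 27627. Summed FPKM of 15 sebaceous genes was 825 to 958 in WT and 429 to 689 in DKO (14 of 15 lower, 10 with an unadjusted p under 0.05), and that of 19 hair follicle genes was 5589 to 6176 against 2175 to 5827 (19 of 19 lower, 3 with p under 0.05). Summed FPKM of 15 stress keratinocyte genes was 566 to 731 against 1039 to 1483 (11 of 11 tested higher, 7 with p under 0.05), and of 45 skeletal muscle genes 1113 to 1266 against 1787 to 3487 (40 of 43 tested higher, 32 with p under 0.05). Over all genes tested 52.9% were higher, and 4.96% were higher and 2.54% lower at an unadjusted edgeR p under 0.05. In the stress list, mean FPKM rose from 9.88 to 116 for *Krt16* and from 37 to 351 for *Stfa2*, whereas *Krt17* had a log2 fold change of 0.05. The lists were chosen with earlier results of these data known, so these differences are no independent support. The part of these differences in the levels of *Serpinb6e*, *Serpina1e*, *Serpina3b*, *Serpinb11*, *Serpinb3a* and *Serpinb3c* was not tested.

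Of the other lists, basal keratinocyte, fibroblast, endothelial, macrophage and mast cell genes overlapped between groups in summed FPKM. Their median log2 fold changes were 0.09 for basal keratinocyte genes (9 of 10 higher), 0.26 for fibroblast genes (12 of 14), 0.22 for endothelial genes (8 of 10), 0.31 for macrophage genes (9 of 10) and 0.38 for mast cell genes (7 of 8 tested, *Fcer1a* at 0). The lower basal gene, *Krt15*, had 2278, 2428 and 3914 normalized counts in WT and 1897, 2139 and 1664 in DKO. Its log2 fold change was −0.60 ± 0.207 (unadjusted p = 0.0168, adjusted p = 0.485 by edgeR). Differentiated keratinocyte genes had a median of −0.03 (9 of 19 tested higher), although their summed FPKM was 3189 to 3309 in WT and 3766 to 4793 in DKO. For neutrophils 2 of 10 genes were tested and *Ly6g* was at 0 in all libraries, with a median of 0.34, and for hepatocytes 2 of 10 were tested, with a median of 0.60.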

How the data were processed

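Whole back skin of 3 WT and 3 DKO mice at P4 was profiled by RNA-Seq after rRNA depletion. According to the submitters' processing notes, the authors trimmed reads with Trimmomatic (0.36), mapped them with STAR (2.5.2b) to GRCm38 and counted them per gene with featureCounts of Subread (1.5.2). The deposited values are raw whole-number counts per gene beside a gene length. Strand use and the treatment of reads with several hits are not given in the sources used here. The 7 epidermis libraries held only 0 and were not used.

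Symbols were found for 48970 of 49315 identifiers. The 6 libraries, grouped by their labels, were compared with edgeR (4.0.16, in R 4.3.3: filterByExpr, TMM, quasi-likelihood test, Benjamini-Hochberg over all 20168 genes tested). Genes were called at an adjusted p under 0.05 where the log2 fold change was also beyond 1 in either direction. Normalized counts are counts divided by the TMM-scaled library size and multiplied by its mean, and FPKM also divides by gene length. DESeq2 (1.42.0) was the alternative tool, and other alternatives changed the scaling, the filter on low counts, a block on the title number and the libraries included. The fits were tested on simulated data. Nothing in the labels says that the 6 libraries were processed independently, so p-values measure the spread between these libraries.

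The members and the gene lists (genes linked to serpins, Serpinh1 clients and 12 cell type lists) were chosen with earlier results of these data known. Values per library were given for members called by edgeR or DESeq2, with an unadjusted p under 0.05, without overlap between groups, among the 10 highest by FPKM or in a clade B cluster (some as ranges), and the 8 genes linked to serpins with the lowest p were named. Values of other members were added after they were seen, and those of 1 member are not reported here, although it stays in the counts. Clusters are runs of at least 3 serpin genes with starts at most 500 kb apart. Promoters came from RefSeq (GRCm38.p6), and transcript windows of 150 bases from GENCODE, whose gene bounds equal those of the files for 64 of 68 members.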

Additional observations from a re-analysis of the deposited data

How the results depend on the processing

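edgeR called 14 genes and 1 serpin, and 6 serpins had an unadjusted p under 0.05. DESeq2 called 152 genes and 3 serpins, scaling to total counts 22 and 2, and no filter on low counts 210 and 3. Scaling without the skeletal muscle list called 2 serpins. Requiring at least 10 counts in every library called 0 serpins, because Serpinb6e and Serpina1e then leave the fit, with 4 at an unadjusted p under 0.05. Leaving out 1 library at a time gave 2 to 36 called genes, 0 to 2 called serpins and 5 to 12 serpins with an unadjusted p under 0.05, the 12 without DKO replicate 2. For the other changes the cause was not tested. Serpinb6e kept its sign in 12 of 12 alternatives that could be fitted and was called in 9. Among 180 gene fits under alternatives, 178 had the sign of the reported fit. The exceptions were fits of Serpinb7, which was not called under any setting. Its log2 fold change was 0.01 without WT replicate 3 and 0.05 without DKO replicate 2, beside −0.07 in the reported fit. No scaling moved the median log2 fold change of all genes by over 0.1.

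A replicate block on the title number called 35 genes and 2 serpins, Serpinb6e (adjusted p = 0.0093 by edgeR) and Serpina1e (0.012). The number does not form 3 pairs, and the labels do not say what it marks, so it is no pairing by design. Deviations from the group means correlated at 0.23 between WT replicate 3 and DKO replicate 1, from −0.02 to 0.17 between other libraries of the same number and from −0.15 to −0.10 between libraries of different numbers, over 20168 genes. Depth limits what can be said of the 31 serpins below the count rule.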
